A study of Mus musculus with 12 samples.

Results

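Kidney endothelial genes are described here through 10 transcripts, namely Emcn, Ehd3, Pecam1, Kdr, Flt1, Tek, Cdh5, Plvap, Eng and Egfl7. They were taken by name from a list of genes that endothelial cells express, and each was read by 1 probe set, so that 10 of 19934 measured genes are members. The arrays held RNA of whole kidneys from 12 female C57BL/6 mice fed a high-protein diet for 2 months, with 1 array per mouse and 4 mice per genotype. Mut-/- mice lacked Mut (current symbol Mmut), which encodes methylmalonyl-CoA mutase of the mitochondria, and carried the transgene TgINS-Alb-Mut, whose name gives the albumin promoter, a promoter active in liver. The controls were Mut+/- mice, the heterozygotes, and Mut+/+ mice, the wild type, and the diet was common to every group. The labels used here give the transgene for the Mut-/- mice alone, so its effects and those of the lost enzyme cannot be told apart. The labels give no age.

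Blood vessels of the kidney are lined by specialised endothelial cells. In the glomerulus, a tuft of capillaries held by podocytes, the endothelium is thin and pierced by open fenestrae, and it depends on vascular endothelial growth factor made by the podocytes. Around the tubules the capillary fenestrae are closed by diaphragms, and larger vessels carry a continuous lining joined by adherens junctions.

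Values are log2 signals after robust multi-array averaging (RMA), in which a difference of 1 is a 2-fold difference, and levels of different genes cannot be compared because each probe set has its own affinity. The 10 transcripts were well within the measured range, with mean values between 8.45 for Kdr and 11.06 for Emcn, or between the 68.6th and the 97.0th percentile of all genes. Array medians lay between 7.17 and 7.23. Mut-/- replicate 3 stood apart from the other arrays, with a mean correlation of 0.987 with the other 11 arrays across probe sets, against 0.990 to 0.993 for each of those. It also held the lowest value of all 12 arrays for 9 of the 10 members, the exception being Ehd3. The main results below are therefore given with and without it. Mmut itself lay between 8.21 and 8.47 in Mut-/- mice, between 9.87 and 9.97 in Mut+/- mice and between 10.47 and 10.60 in Mut+/+ mice, without overlap. In whole tissue, fewer endothelial cells and less RNA per endothelial cell cannot be told apart.

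In Mut-/- kidneys 4 endothelial genes fell relative to Mut+/+ kidneys, namely Emcn, Ehd3, Eng and Cdh5, by 1.299-fold to 1.53-fold. None of the 10 rose. All 10 had a negative log2 fold change, with a median of -0.31, whereas the median over all 19934 genes was 0.00435. A gene was called at a limma adjusted p under 0.05 over all genes, and 6.69% of all genes were called lower and 2.96% higher in this comparison. Against Mut+/- kidneys the call was made for Ehd3 alone, where 1.46% of all genes were called lower and 1.07% higher. Between Mut+/- and Mut+/+ kidneys it was made for 0 of the 10, where 0.0702% were called lower and 0.0652% higher.

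The promoters of Emcn, Ehd3 and Eng are printed because these are the called members with an entry in the RefSeq promoter table of GRCm38.p6. Each window runs 5′ to 3′ from 250 bases before to 50 after the annotated start, and capitals mark the core motifs of families of transcription factors active in endothelium. The motifs searched on both strands were AGGAAG for the ETS family, AACAAT for the SOX family and AGATAA for the GATA family. Only these exact letters were searched, and other forms of the motifs were not.
Emcn, chr3:137340828-137341127, plus strand: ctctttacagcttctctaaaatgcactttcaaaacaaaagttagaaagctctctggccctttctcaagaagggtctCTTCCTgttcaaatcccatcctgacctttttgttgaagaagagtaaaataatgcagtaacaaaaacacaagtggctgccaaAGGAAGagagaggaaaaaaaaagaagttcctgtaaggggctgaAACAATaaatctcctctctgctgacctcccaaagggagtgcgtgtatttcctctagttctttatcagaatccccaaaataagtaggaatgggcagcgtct
Ehd3, chr17:73804591-73804890, plus strand: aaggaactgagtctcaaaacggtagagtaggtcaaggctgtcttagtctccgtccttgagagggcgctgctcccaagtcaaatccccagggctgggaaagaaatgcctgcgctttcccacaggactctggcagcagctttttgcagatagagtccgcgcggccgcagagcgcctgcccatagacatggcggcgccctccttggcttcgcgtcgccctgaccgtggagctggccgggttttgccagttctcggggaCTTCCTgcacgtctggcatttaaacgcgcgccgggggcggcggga
Eng, chr2:32646345-32646644, plus strand: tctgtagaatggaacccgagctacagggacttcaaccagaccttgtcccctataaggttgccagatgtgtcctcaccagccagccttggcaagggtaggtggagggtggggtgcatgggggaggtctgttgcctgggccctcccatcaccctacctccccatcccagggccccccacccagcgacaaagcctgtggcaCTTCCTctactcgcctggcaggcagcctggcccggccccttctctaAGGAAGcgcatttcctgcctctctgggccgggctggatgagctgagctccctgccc
The Emcn window held the ETS core at positions -174 and -93 and the SOX core at -50, where the start is 0 and the first base of the match is counted. In Ehd3 the single match was an ETS core at position 5, read on the other strand. Eng had ETS cores at positions -52 and -6. Of the 10 members 7 had an entry, with 9 windows in all because Egfl7 had 3. The ETS core was in the windows of 5 of these 7 genes, or 6 of 9 windows, against 35.4% of the 32851 windows in the table. The SOX core was in 2 of the 9 windows (2 of the 7 genes) and the GATA core in 1 of the 9 (1 gene), against 10.7% and 11.2% of all windows. The windows of Flt1 and Egfl7, which did not pass the test, held ETS cores too, and that of Kdr held none of the 3 motifs in the exact letters searched. A match describes the letters of the window and not a bound site.

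**Figure D1:**
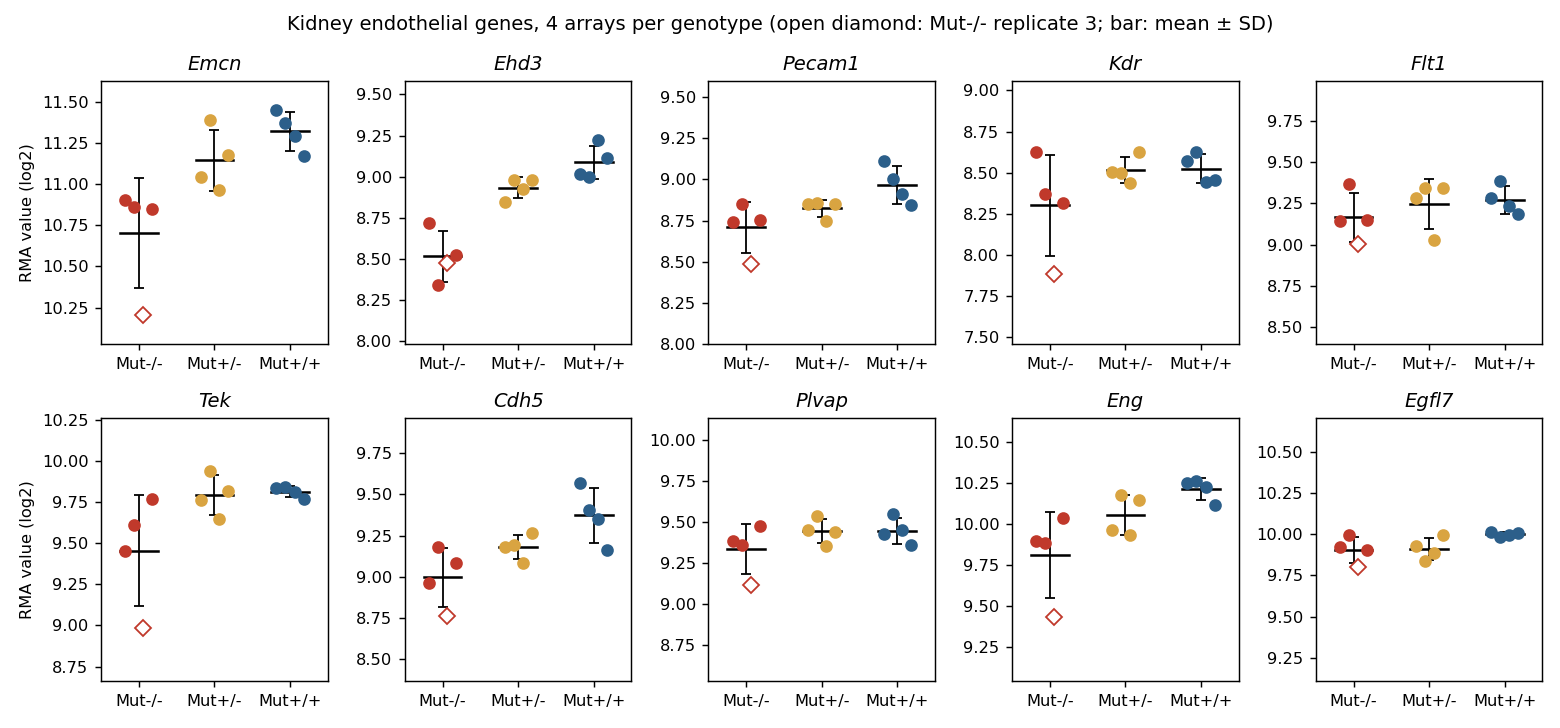
RMA values (log2, vertical axis) of the 10 endothelial genes on each array, by genotype from Mut-/- at the left to Mut+/+ at the right, with horizontal bars for the mean and whiskers for the SD of 4 arrays. The vertical axis spans the same log2 range in every panel, and the open diamond of Mut-/- replicate 3 is the lowest point in each panel except Ehd3.

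Ehd3 encodes an endocytic recycling protein that in the kidney marks glomerular endothelium. Its values in replicates 1 to 4 were 8.72, 8.34, 8.47 and 8.53 in Mut-/- mice, 8.84, 8.98, 8.93 and 8.98 in Mut+/- mice, and 9.02, 8.999, 9.22 and 9.11 in Mut+/+ mice. The 3 genotypes did not overlap for this gene, and Mut-/- replicate 3 lay inside the range of the other mutants. Ehd3 was 1.49-fold lower in Mut-/- than in Mut+/+ kidneys (log2 fold change -0.57, SE 0.08, adjusted p = 0.000679). The group means were 8.52 ± 0.16 in Mut-/-, 8.93 ± 0.06 in Mut+/- and 9.09 ± 0.10 in Mut+/+ mice (SD, n = 4 each). Ehd3 was 1.34-fold lower in Mut-/- than in Mut+/- kidneys (log2 fold change -0.42, SE 0.08, adjusted p = 0.0115). Mut+/- kidneys were 1.11-fold below Mut+/+ kidneys, a difference that did not pass the test (adjusted p = 0.467) although the arrays did not overlap. Without Mut-/- replicate 3 the log2 fold changes of the mutants were -0.56 against Mut+/+ (adjusted p = 0.00174) and -0.40 against Mut+/- (adjusted p = 0.0257).

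Emcn encodes endomucin, a sialomucin of the endothelial surface that is abundant on glomerular and other capillaries. Mut-/- arrays held 10.90, 10.86, 10.20 and 10.85, Mut+/- arrays 11.04, 11.39, 10.97 and 11.18, and Mut+/+ arrays 11.45, 11.37, 11.29 and 11.17. Every mutant lay below every control, whereas the controls overlapped each other, and Mut-/- replicate 3 was far below the rest. The group means were 10.70 ± 0.33, 11.14 ± 0.19 and 11.32 ± 0.12 in Mut-/-, Mut+/- and Mut+/+ mice (SD, n = 4 each). The fall against Mut+/+ was 1.53-fold (log2 fold change -0.62, SE 0.14, adjusted p = 0.0143), and without Mut-/- replicate 3 the log2 fold change was -0.45 (adjusted p = 0.0106). Against Mut+/- the log2 fold change was -0.44 (95% interval -0.74 to -0.14), which did not pass the test (adjusted p = 0.125), and without Mut-/- replicate 3 it was -0.27 (adjusted p = 0.168). The two-sided exact permutation p of Emcn and of Ehd3 was 0.0286 for the mutants against either control group, the smallest that 4 against 4 arrays can give.

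Cdh5 encodes VE-cadherin, the adhesion molecule of endothelial adherens junctions. Its values were 8.96, 9.18, 8.76 and 9.08 in Mut-/- mice, 9.18, 9.19, 9.08 and 9.26 in Mut+/- mice, and 9.57, 9.41, 9.35 and 9.16 in Mut+/+ mice. The lowest Mut+/+ array, replicate 4, lay below the highest mutant, so the groups overlapped by 1 array each. Cdh5 was 1.299-fold lower in Mut-/- than in Mut+/+ kidneys (log2 fold change -0.38, SE 0.09, adjusted p = 0.0226). This call ended without Mut-/- replicate 3 (adjusted p = 0.0502), and also without Mut+/+ replicate 1 or 2 (adjusted p = 0.0559 and 0.0644), with log2 fold changes of -0.30, -0.31 and -0.37 in these 3 fits.

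Pecam1 encodes CD31, an adhesion molecule at the contacts between endothelial cells that platelets and leukocytes also carry. Mut-/- arrays held 8.74, 8.85, 8.49 and 8.76, Mut+/- arrays 8.85, 8.86, 8.75 and 8.85, and Mut+/+ arrays 9.11, 9.0003, 8.91 and 8.84. Of the 4 mutants 3 lay below all Mut+/+ arrays. The log2 fold change against Mut+/+ was -0.26 (SE 0.08) and narrowly missed the threshold (adjusted p = 0.0522). It passed without Mut-/- replicate 2 (adjusted p = 0.0334) and was further from it without Mut-/- replicate 3 (adjusted p = 0.113).

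Eng encodes endoglin, a coreceptor for ligands of the TGF-beta family in endothelium. Its values were 9.90, 9.88, 9.43 and 10.04 in Mut-/- mice, 9.96, 10.17, 9.93 and 10.14 in Mut+/- mice, and 10.25, 10.26, 10.22 and 10.12 in Mut+/+ mice. Every mutant lay below every Mut+/+ array, and the Mut+/- arrays overlapped both. Eng was 1.32-fold lower in Mut-/- than in Mut+/+ kidneys (log2 fold change -0.40, SE 0.11, adjusted p = 0.0311). Without Mut-/- replicate 3 it was still called, with a log2 fold change of -0.27 (adjusted p = 0.0326). The call ended without any one of the Mut+/+ arrays, replicates 1 to 4, with adjusted p = 0.0630, 0.0843, 0.0699 and 0.0559 in that order, while the log2 fold change stayed between -0.43 and -0.38. Of 20 other measured genes of BMP and TGF-beta signalling 1 fell and none rose, where 6.69% of all genes were called lower. The median log2 fold change over the 20 was -0.04. The gene that fell was Bmpr2, a receptor subunit, at 1.18-fold lower (adjusted p = 0.0194). The call of Bmpr2 ended without Mut+/+ replicate 4 (adjusted p = 0.0672).

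Kdr and Flt1 encode the receptors VEGFR2 and VEGFR1 for vascular endothelial growth factor. Kdr values were 8.63, 8.37, 7.89 and 8.32 in Mut-/- mice, 8.50, 8.50, 8.44 and 8.62 in Mut+/- mice, and 8.57, 8.62, 8.44 and 8.45 in Mut+/+ mice. The mutants held both the highest and the lowest of these values. The log2 fold change of Kdr against Mut+/+ was -0.22 (95% interval -0.47 to 0.03, adjusted p = 0.264), and -0.09 without Mut-/- replicate 3 (95% interval -0.25 to 0.08). Flt1 values were 9.14, 9.37, 9.002 and 9.15 in Mut-/- mice, 9.28, 9.34, 9.02 and 9.34 in Mut+/- mice, and 9.28, 9.39, 9.23 and 9.19 in Mut+/+ mice. The groups overlapped, and the log2 fold change of Flt1 was -0.11 (95% interval -0.29 to 0.08, adjusted p = 0.493), and -0.05 without Mut-/- replicate 3 (95% interval -0.24 to 0.13). It was -0.17 without Mut-/- replicate 2 and -0.07 without Mut+/+ replicate 2. Their ligand gene Vegfa, added for its role after its values were seen, had a log2 fold change of 0.04 (95% interval -0.10 to 0.17, adjusted p = 0.786), with single mutants between 10.44 and 10.77 and Mut+/+ arrays between 10.54 and 10.58.

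Tek encodes TIE2, the receptor of the angiopoietins. Mut-/- arrays held 9.45, 9.61, 8.99 and 9.77, Mut+/- arrays 9.76, 9.94, 9.65 and 9.82, and Mut+/+ arrays 9.83, 9.84, 9.81 and 9.77. The 4 Mut+/+ arrays lay within a narrow range and the mutants below it, in replicate 4 by a margin smaller than the rounding of these values. The log2 fold change against Mut+/+ was -0.36 (SE 0.13), which did not pass the test (adjusted p = 0.0942), and it was -0.20 without Mut-/- replicate 3 (adjusted p = 0.143). Without Mut-/- replicate 4 it passed (log2 fold change -0.46, adjusted p = 0.0278).

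The ligands of TIE2 were read from a list of secreted vascular ligands and their coreceptors. Angpt2 held 7.11, 7.16, 6.93 and 7.16 in Mut-/- mice, 7.06, 7.25, 7.55 and 7.38 in Mut+/- mice, and 7.77, 7.76, 7.85 and 7.77 in Mut+/+ mice. It was 1.62-fold lower in Mut-/- than in Mut+/+ kidneys (log2 fold change -0.70, SE 0.09, adjusted p = 0.000523), without overlap. The Mut+/- arrays also lay below every Mut+/+ array, with a log2 fold change of -0.48 that did not pass the test (adjusted p = 0.0654). They overlapped the mutants, with Mut+/- replicate 1 at 7.06. Angpt1, the activating ligand made by cells around the vessels, fell 1.41-fold in Mut-/- against Mut+/+ kidneys (adjusted p = 0.0263), with mutants between 6.13 and 6.83 and Mut+/+ arrays between 6.82 and 7.18, so that 1 array of each group overlapped. Its call ended without Mut+/+ replicate 2, 3 or 4, with adjusted p up to 0.0786. Of the 23 measured ligands and coreceptors of this list 2 rose and 4 fell, where 2.96% of all genes were called higher and 6.69% lower. The list counts had a median log2 fold change of -0.09 beside them. These counts were 1 and 3 without Mut-/- replicate 3, with a median of -0.04. In that fit 502 of 19934 genes were called higher and 1051 (5.27%) lower. The rise with the smallest p was that of Sema3c, which encodes a secreted semaphorin, at 1.70-fold (log2 fold change 0.77, SE 0.08, adjusted p = 0.000229), with mutants between 8.76 and 9.19 and Mut+/+ arrays between 8.18 and 8.31. In Mut-/- against Mut+/- kidneys 2 of the 23 were called higher and 0 lower, where 1.07% and 1.46% of all genes were. Neither Angpt1 nor Angpt2 was thus called lower there. In Mut+/- against Mut+/+ kidneys 0 of the 23 were called with all arrays, where 0.0702% of all genes were called lower and 0.0652% higher. Without Mut-/- replicate 3, 1 of the 23 was called lower, where 0.171% of all genes were.

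Plvap encodes the protein of fenestral diaphragms and is a marker of peritubular capillaries and veins. Its values were 9.39, 9.36, 9.12 and 9.48 in Mut-/- mice, 9.45, 9.54, 9.35 and 9.44 in Mut+/- mice, and 9.43, 9.55, 9.45 and 9.36 in Mut+/+ mice. The groups overlapped, and the log2 fold change against Mut+/+ was -0.11 (95% interval -0.27 to 0.05, adjusted p = 0.385) with all arrays and -0.04 (95% interval -0.17 to 0.09) without Mut-/- replicate 3. Egfl7 encodes a protein that endothelial cells secrete into the matrix around vessels. Mut-/- arrays held 9.93, 9.99, 9.80 and 9.90, Mut+/- arrays 9.93, 9.84, 9.88 and 9.99, and Mut+/+ arrays 10.02, 9.99, 9.99 and 10.01. The log2 fold change of Egfl7 against Mut+/+ was -0.10 (95% interval -0.21 to 0.01, adjusted p = 0.279), and -0.06 without Mut-/- replicate 3 (95% interval -0.17 to 0.05). Its interval leaves out a fall as large as that of Ehd3 or Emcn, as does that of Plvap.

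**Figure D2:**
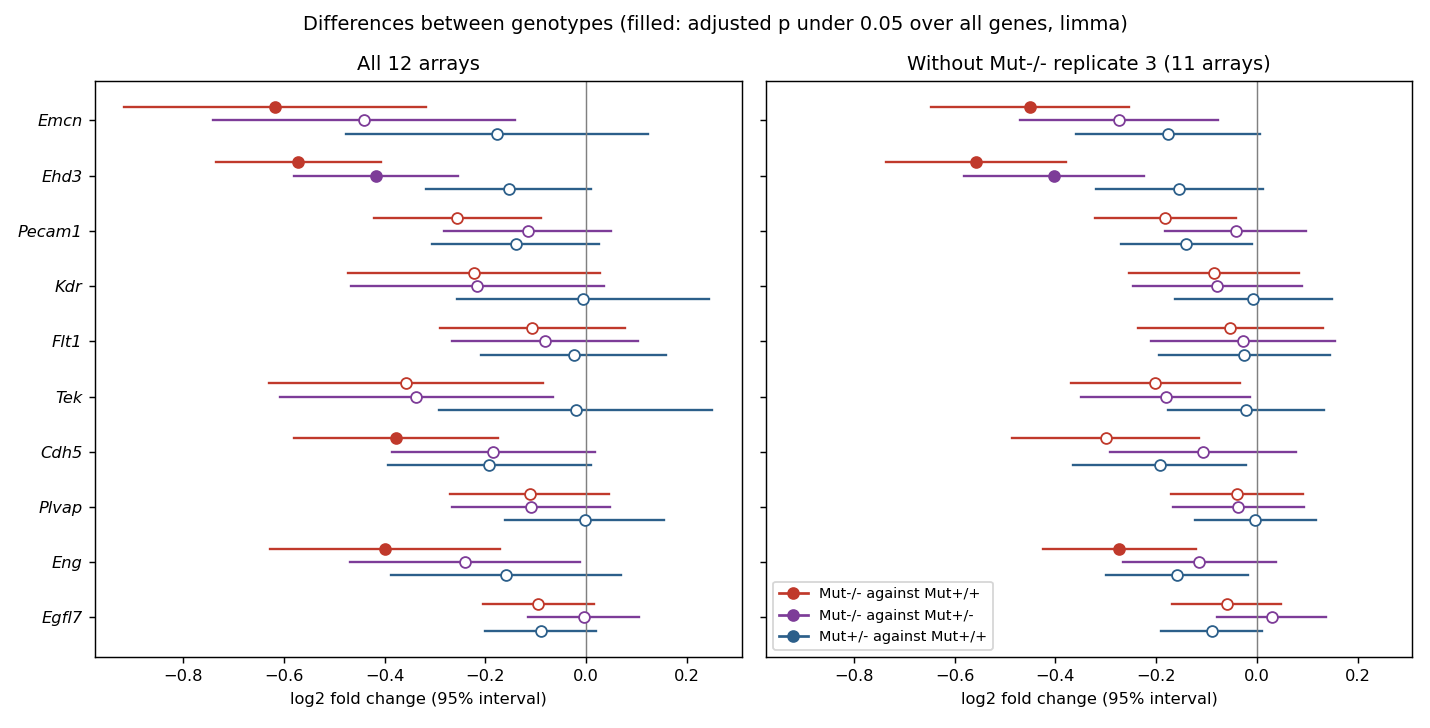
Log2 fold changes (horizontal axis, with 95% intervals) of the 10 endothelial genes in the 3 comparisons, from all 12 arrays at the left and without Mut-/- replicate 3 at the right. Filled points passed an adjusted p of 0.05 over all genes, which were 4 members for Mut-/- against Mut+/+ at the left and 3 at the right, and Ehd3 for Mut-/- against Mut+/- in both panels.

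Among the members, Emcn and Ehd3 had the largest negative fold changes, and both are on the list of glomerular endothelial genes. Emcn is abundant on other capillaries too, so this pair does not read the glomerulus alone. Their log2 fold changes in Mut-/- against Mut+/+ were -0.62 and -0.57, against a range of -0.40 to -0.10 and a median of -0.24 for the other 8 members. Averaged over the pair, Mut-/- replicates 1 to 4 lay 0.39, 0.60, 0.87 and 0.52 below the Mut+/+ mean on the log2 scale, and averaged over the other 8 they lay 0.18, 0.12, 0.52 and 0.14 below it. The mean of the pair was thus further below Mut+/+ than the mean of the other 8 on each mutant array. Single genes did not keep this order, since Cdh5 in Mut-/- replicate 1 (-0.41) lay further below its Mut+/+ mean than Ehd3 (-0.37), and in replicate 3 so did Tek (-0.83) and Eng (-0.78) than Ehd3 (-0.61). The difference between both sets was not tested, because the members were chosen with earlier results known. Over the longer lists, members included, the median log2 fold change was -0.23 for 7 glomerular and -0.22 for 21 general endothelial genes. These medians were -0.27 and -0.14 in the fit without Mut-/- replicate 3. With all arrays but without the members, they were -0.15 for 5 glomerular and -0.17 for 14 general endothelial genes. Without Mut-/- replicate 3 the median log2 fold change over the 10 members was -0.19 and 3 members were called lower, Emcn, Ehd3 and Eng, where 5.27% of all genes were called lower.

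**Figure D3:**
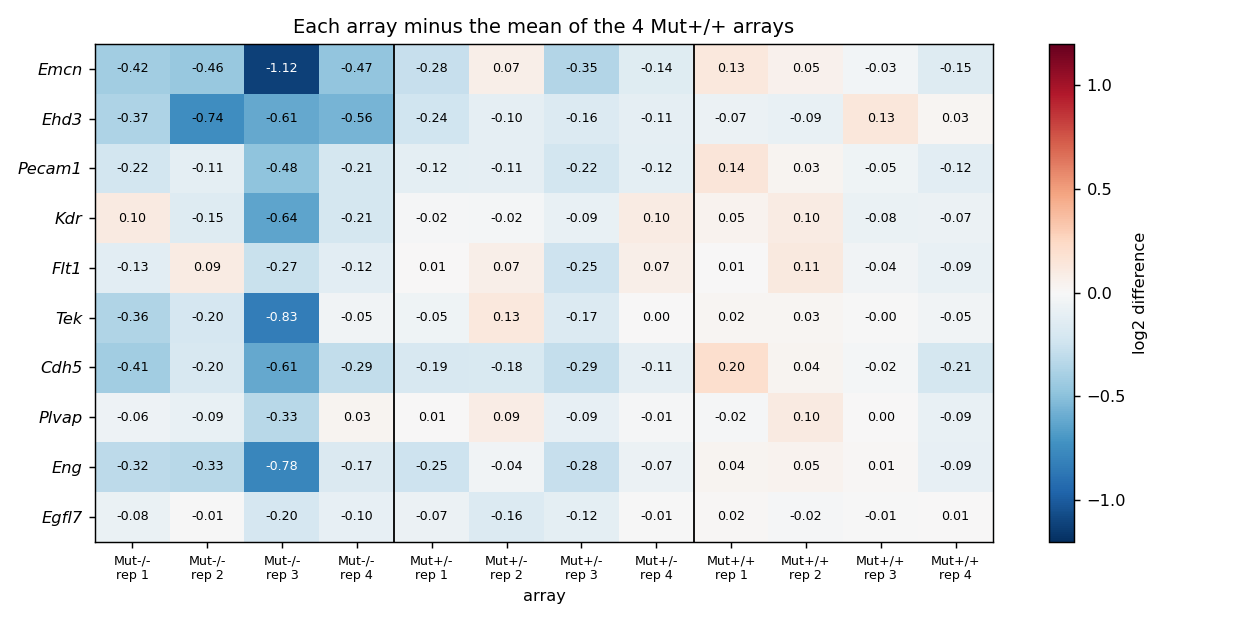
Log2 difference of each array (columns, Mut-/- first) from the mean of the 4 Mut+/+ arrays, for each of the 10 endothelial genes (rows), with the value printed in each cell. Mut-/- replicate 3 runs from -1.12 in Emcn to -0.20 in Egfl7, and Ehd3 lies between -0.74 and -0.37 on all 4 mutant arrays.

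The number of members whose arrays did not overlap was also counted. All 4 mutants lay below all 4 Mut+/+ arrays for 4 members, Emcn, Ehd3, Tek and Eng, and 9.4% of all genes lay apart in this way. Against Mut+/- arrays this held for Emcn and Ehd3, where 5.65% of all genes lay apart. In that comparison 1 member, Ehd3, was called lower, where 1.46% of all genes were, and 0 were called higher, where 1.07% were. The median log2 fold change of the 10 was -0.20, and -0.09 without Mut-/- replicate 3.

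Mut+/- and Mut+/+ kidneys were then compared, which bears on the carriers of 1 intact allele. No member was called by limma, and 0 of the 10 reached an unadjusted p under 0.05, as 11.3% of all genes did. In this comparison 0.0702% of all genes were called lower and 0.0652% higher. In the fit without Mut-/- replicate 3, Pecam1, Cdh5 and Eng were past an unadjusted p of 0.05 for this contrast, with limma adjusted p = 0.332, 0.312 and 0.311. Ehd3 was the single member whose Mut+/- arrays all lay below the Mut+/+ arrays, where 5.26% of all genes did. The log2 fold changes ran from -0.19 for Cdh5 (95% interval -0.39 to 0.01) through -0.18 for Emcn, -0.16 for Eng, -0.15 for Ehd3 and -0.14 for Pecam1 to between -0.09 and -0.00279 for the other 5. This comparison and that of Mut-/- against Mut+/+ share the Mut+/+ arrays, so their values are given side by side and not related to each other.

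Further endothelial genes outside the 10 were read from lists by vessel type. In Mut-/- against Mut+/+ kidneys 6.69% of all genes were called lower and 2.96% higher, the shares for this list and the later ones. Among 5 other glomerular endothelial genes Plat, which encodes tissue plasminogen activator, fell in Mut-/- against Mut+/+ kidneys. It held 8.998, 9.01, 8.86 and 8.73 in Mut-/- mice and 9.38, 9.24, 9.23 and 9.42 in Mut+/+ mice, a 1.33-fold fall (adjusted p = 0.00726). The remaining 4 glomerular genes, Sost, Gata5, Pi16 and Nostrin, did not pass the test, with log2 fold changes of 0.10, -0.15, -0.23 and -0.11, named after their values were seen. The median over the 5 was -0.15. In Mut-/- against Mut+/- kidneys 0 of these 5 were called, Plat included, with a median of -0.09. In that comparison 1.46% of all genes were called lower and 1.07% higher.

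Of 14 other general endothelial genes 4 fell and none rose, with a median log2 fold change of -0.17, and 13 of the 14 were negative. With the members included, 6 of 21 general endothelial genes fell with a median of -0.22. Without Mut-/- replicate 3, 4 of 21 fell with a median of -0.14, where 5.27% of all genes were called lower. With all 12 arrays Adgrl4, an adhesion receptor of endothelial cells, was 1.42-fold lower (adjusted p = 0.00494). Robo4, a guidance receptor that stabilises vessels, and Esam, a molecule of endothelial tight junctions, had log2 fold changes of -0.26 each (adjusted p = 0.00771 and 0.00942). No array of Mut-/- overlapped Mut+/+ for these 3 genes, and their calls held without any 1 of the 12 arrays. Adgrl4 in Mut-/- replicate 3 lay at 9.33, against 9.66 to 9.81 in the other mutants, whereas Robo4 and Esam in that replicate, at 7.96 and 8.04, lay close to the other mutants. In Mut-/- against Mut+/- kidneys 0 of the 21 general endothelial genes were called, these 3 included. The shares of all genes were 1.46% called lower and 1.07% higher in that comparison. The median log2 fold change of the 21 was -0.12 there.

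Of 7 other peritubular and venous genes 1 fell, Cd36, which encodes a fatty acid receptor of capillary endothelium that tubule cells and macrophages carry as well. It was 1.55-fold lower in Mut-/- than in Mut+/+ kidneys (adjusted p = 0.00333) and 1.46-fold lower than in Mut+/- kidneys (adjusted p = 0.0185). Of 6 lymphatic endothelial genes 2 fell and none rose. Flt4, the lymphatic receptor VEGFR3 that fenestrated capillaries also express, was 1.27-fold lower (adjusted p = 0.00178), and Mmrn1, a multimerin, was 1.32-fold lower (adjusted p = 0.00815) at a low mean signal of 5.61. Calls of Plat, Cd36, Flt4 and Mmrn1 against Mut+/+ held without any 1 of the 12 arrays.

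At an unadjusted p under 0.05, 15.2% of all genes were lower and 9.25% higher in Mut-/- against Mut+/+ kidneys. Genes of arterial identity and Notch signalling gave no call among 14, with 1 lower and 1 higher at an unadjusted p under 0.05 and a median log2 fold change of -0.06. The gene with the smallest p was Hey2, a Notch target (log2 fold change -0.16, adjusted p = 0.132). Endothelial transcription factor genes gave no call among 26, with 7 lower and 1 higher at an unadjusted p under 0.05 and a median of -0.06. Erg, an ETS factor of endothelial identity, had the smallest p (log2 fold change -0.24, adjusted p = 0.0709), and it was called without Mut-/- replicate 4 (log2 fold change -0.30, adjusted p = 0.0194). The median of the 26 was -0.04 without Mut-/- replicate 3.

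**Figure D4:**
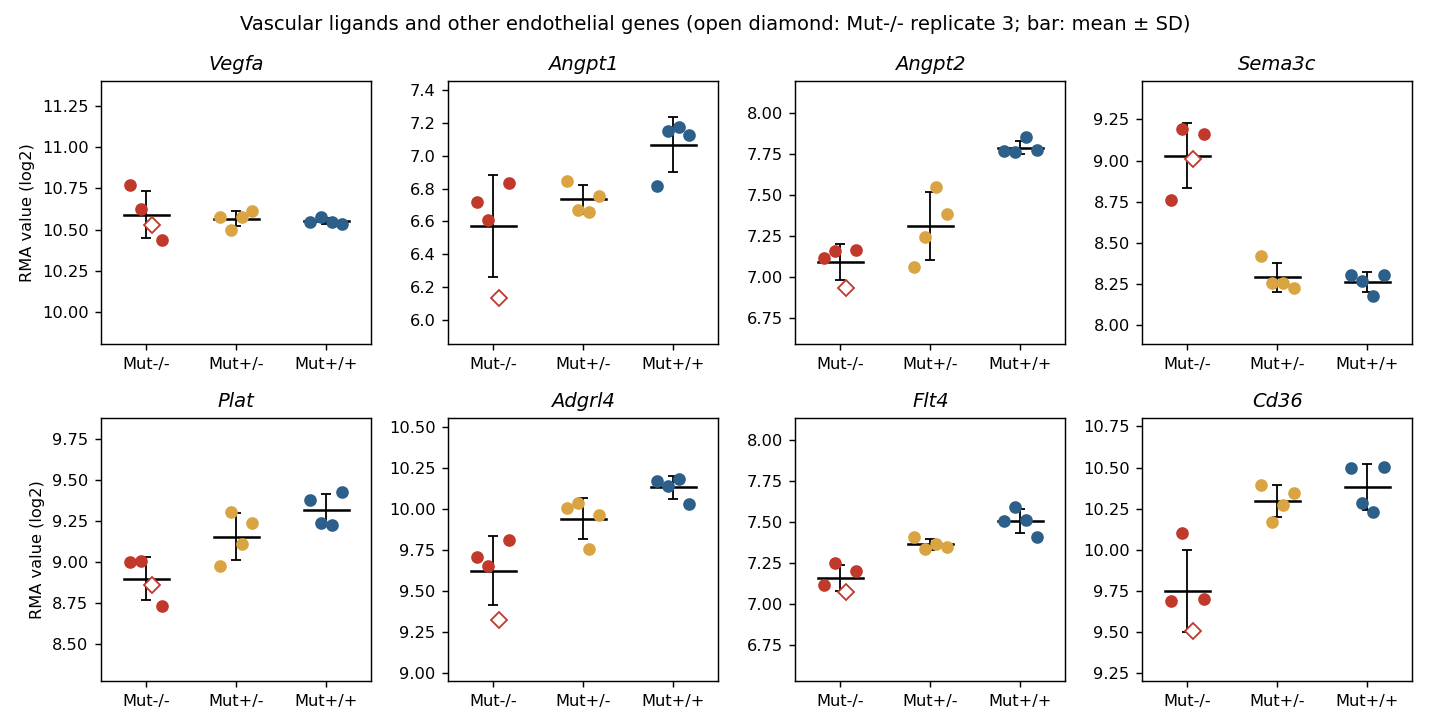
RMA values (log2, vertical axis) of 4 secreted ligand genes in the upper row and 4 further endothelial genes in the lower row, by genotype from Mut-/- to Mut+/+, with the mean and SD of 4 arrays and Mut-/- replicate 3 as an open diamond. Angpt2, Plat, Adgrl4, Flt4 and Cd36 are lower in every Mut-/- than in every Mut+/+ array, Sema3c is higher, and Vegfa and Angpt1 overlap.

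Of 19 genes of vascular tone and coagulation 6 fell and 1 rose in Mut-/- against Mut+/+ kidneys, with a median log2 fold change of -0.12. Plat, given above among the glomerular genes, is on this list too and is among the 6. F8, coagulation factor VIII, made by endothelial cells, was 1.47-fold lower (adjusted p = 0.00344), and Plau, the urokinase gene, expressed in kidney tubules, was 1.34-fold lower (adjusted p = 0.00180). F8 was also lower against Mut+/- kidneys, by 1.32-fold (adjusted p = 0.0480). Of 12 genes of endothelial activation and leukocyte adhesion 1 rose, Cd44, an adhesion receptor of many cell types (1.48-fold, adjusted p = 0.0470), and none fell. Cd44 was no longer called when any 1 of 10 arrays was left out (largest adjusted p = 0.124, and 0.114 without Mut-/- replicate 3). Of 17 hypoxia response genes 1 rose, Bnip3, a mitophagy receptor (log2 fold change 0.38, adjusted p = 0.00567), and none fell.

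**Figure D5:**
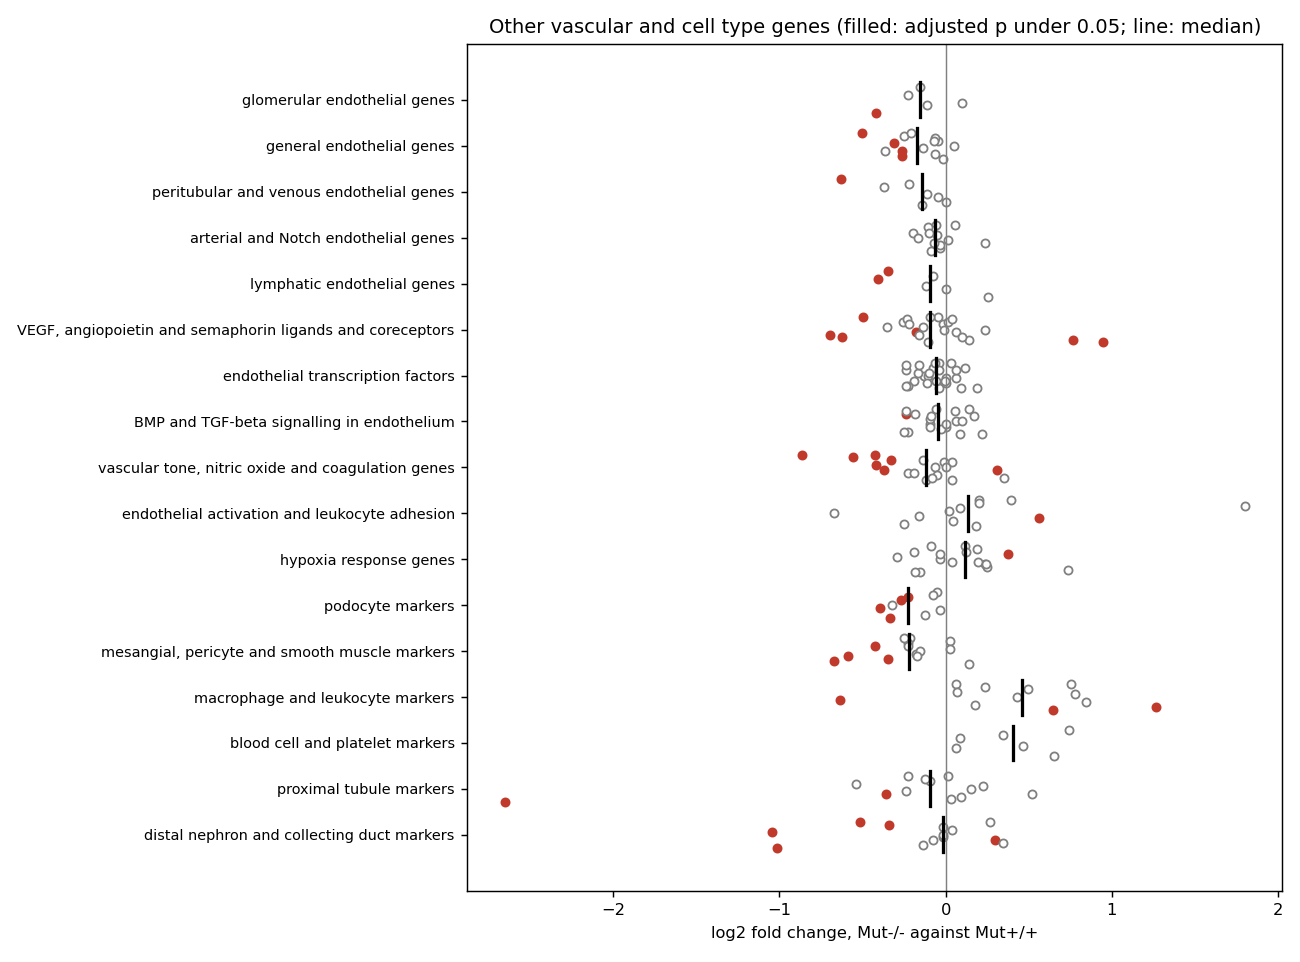
Log2 fold changes in Mut-/- against Mut+/+ (horizontal axis) of the genes of 17 vascular and cell type lists (rows), without the 10 members, where each point is a gene, filled if its adjusted p was under 0.05, and a line marks the median of a list. The medians of the glomerular, general, peritubular, arterial and lymphatic endothelial lists and of the podocyte and mesangial lists lie below 0, and those of the endothelial activation, hypoxia, macrophage and blood cell lists above it.

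Markers of other cells moved beside the endothelial genes, and their part in these results was not tested. Of 9 podocyte markers 4 fell and none rose, led by Podxl, which endothelial cells also express, 1.32-fold lower (adjusted p = 0.00198). Nphs1 and Plce1 of the podocyte followed with log2 fold changes of -0.27 and -0.34 (adjusted p = 0.00465 and 0.00591). Their list mean lay between 8.27 and 8.35 in Mut-/- mice and between 8.47 and 8.54 in Mut+/+ mice. Mut-/- replicate 3, at 8.27, was close to the other mutants in this list. Of 14 mesangial, pericyte and smooth muscle markers 4 fell and none rose, with list means of 7.89 to 8.16 in Mut-/- mice and 8.19 to 8.35 in Mut+/+ mice. Their named genes were the contractile genes Myh11 and Acta2, with log2 fold changes of -0.35 and -0.59 (adjusted p = 0.00310 and 0.00874), and Itga8, an integrin of the mesangium, at -0.67 (adjusted p = 0.00808).

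Macrophage and leukocyte markers had 2 risen and 1 fallen gene of 12. The myeloid lysozyme gene Lyz2 rose 2.40-fold (adjusted p = 0.0281) and the lysosomal gene Cd68 1.57-fold (adjusted p = 0.0342), while the receptor gene Csf1r fell 1.55-fold (adjusted p = 0.0171). These calls depended on single arrays, since Lyz2 lost its call when any 1 of 5 arrays was left out (largest adjusted p = 0.0847), Cd68 any 1 of 6 (0.111, and 0.0830 without Mut-/- replicate 3) and Csf1r Mut+/+ replicate 2 or 4 (0.0530). The list mean lay between 7.16 and 8.13 in Mut-/-, 7.09 and 7.56 in Mut+/-, and 7.004 and 7.19 in Mut+/+ mice. Mut+/- arrays held 8.70 to 10.21 for Lyz2 and 8.03 to 8.44 for Cd68. The median log2 fold change of the list in Mut-/- mice was 0.46 against Mut+/+ and 0.03 against Mut+/-. In the latter comparison 0 of the 12 were called higher and 1 lower, where 1.07% and 1.46% of all genes were. Of 6 blood cell and platelet markers 0 were called, with 2 higher at an unadjusted p under 0.05, and the smallest p was that of the platelet factor gene Pf4 (log2 fold change 0.65, adjusted p = 0.113). Pf4 held 8.06 in Mut-/- replicate 2, against 6.52 to 6.94 in the other mutants, and without that array its log2 fold change was 0.31 (adjusted p = 0.0596). Without Mut-/- replicate 1 it was 0.83 and called (adjusted p = 0.0471).

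Proximal tubule markers had 2 fallen genes of 13, Kap, an androgen-regulated transcript, 6.29-fold lower (adjusted p = 0.000405), and the endocytic receptor gene Cubn, 1.28-fold lower (adjusted p = 0.00401). The list mean of Mut-/- replicate 3 was 11.28, against 11.63 to 11.85 in the other mutants and 11.87 to 11.91 in Mut+/+ mice. Distal nephron and collecting duct markers had 1 risen and 4 fallen genes of 13, with a list mean of 10.16 in Mut-/- replicate 3, against 10.38 to 10.53 in the other mutants and 10.55 to 10.60 in Mut+/+ mice. Aqp3, a water channel of the collecting duct, was 1.23-fold higher (adjusted p = 0.00505), and the distal tubule genes Slc12a3 and Calb1 were 1.27-fold and 2.02-fold lower (adjusted p = 0.00878 and 0.0203). Calb1 was not called without Mut+/+ replicate 3 or 4 (largest adjusted p = 0.0568). In the array that was lowest for 9 of the 10 endothelial genes, the means of both tubular lists were thus also lowest among the 12 arrays.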

How the data were processed

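Whole-kidney RNA from 12 mice was measured on mouse gene arrays from Affymetrix, which the sample descriptions name although the labelling text names a human array. Per the submitters' processing notes the authors used RMA and Expression Console 1.2.1, and the deposited values are log2 signals, 1 for each probe set. The table held 35552 probe sets, and their genome build was not given in the sources used here. Probe sets with exactly 1 symbol in the platform annotation (21785) were kept and the brightest per gene gave 19934 genes. Each member had 1 probe set. All 3 groups were fitted with limma 3.58.1 in R 4.3.3 (9 residual degrees of freedom), adjusted by Benjamini-Hochberg over all genes. Members and the 17 companion lists, 251 listed genes with the members and 229 of them measured, were chosen with earlier results of these data known, so lists are given as counts and medians without a test. Named genes were all members and, per companion list, up to 3 called genes with the smallest adjusted p, or the gene with the smallest p where none was called. Nothing in the labels says how the mice were related or when arrays were run. The p-values set differences against the spread within the 3 groups of these arrays, which limma moderates over all genes. The number of arrays limits the precision. In simulated data for Mut-/- against Mut+/+ over 19934 genes, the fit recovered 64 of 67 genes given a log2 change of 0.5. The simulation gave each gene the same spread in all groups and no array that stood apart, unlike Mut-/- replicate 3. It therefore does not measure recovery for genes that vary more among the mutants. The alternatives tried left out each of the 12 arrays in turn or changed 1 of 10 other settings, and their effects follow in the closing section.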

Additional observations from a re-analysis of the deposited data

Results flagged for a closer look

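For each of the 10 members, each genotype group of 4 arrays was searched for a single array far from the other 3, by Dixon's criterion, which chance alone meets in about 1 of 20 groups. Of the 30 groups 2 met it. Emcn in Mut-/- replicate 3 lay at 10.20, while the nearest of the other mutants was at 10.85 and the farthest at 10.90. Pecam1 in Mut+/- replicate 3 lay at 8.75, while the other Mut+/- arrays lay between 8.85 and 8.86.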

How the results depend on the processing

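In Mut-/- against Mut+/+ the calls of Emcn and Ehd3 held under all 22 alternatives, with log2 fold changes from -0.68 to -0.45 and from -0.64 to -0.49. With only the 2 groups compared in the fit, Cdh5 and Eng were not called, which left 2 members lower, and the genes called numbered 1154, against 191 for Mut-/- against Mut+/- and 78 for Mut+/- against Mut+/+, where the fit of all 3 groups gave 1925, 506 and 27. Leaving out 1 array gave 1019 to 1928, 229 to 592 and 5 to 67 called genes, and 2 to 5 members lower in Mut-/- against Mut+/+, with 2 without Mut+/+ replicate 1 or 2. In Mut+/- against Mut+/+ array weights gave 163 called genes and a trended, robust prior 42. Replicate numbers did not pair the arrays, since correlations of same-numbered deviations ran from -0.24 to 0.17 and 3 of 24 best matches had the same number. With the replicate block 1552, 405 and 7 genes were called in the 3 comparisons, and Pecam1 was called in Mut-/- against Mut+/+ (adjusted p = 0.0400). Pecam1 was also called after a filter at a group mean of 6, over every probe set, with the trended prior or with median centring (adjusted p = 0.0427, 0.0486, 0.0370 and 0.0458). Signs changed in values that passed no test. Leaving out 1 array, the log2 fold change of Egfl7 in Mut-/- against Mut+/- ran from -0.035 to 0.030, and in Mut+/- against Mut+/+ that of Kdr from -0.043 to 0.027, Flt1 from -0.057 to 0.049, Tek from -0.070 to 0.028 and Plvap from -0.033 to 0.032. Egfl7 also turned with array weights (9.06e-05) and median centring (0.000583), and in Mut+/- against Mut+/+ Kdr (0.0051) and Plvap (0.018) with quantile normalisation. The cause was not tested. With 4 arrays per group, small changes of members may not be detectable.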

Other observations

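Mut-/- replicate 2 stood apart in other lists than replicate 3. Its mean over the 6 blood cell and platelet markers was 8.96, against 7.54 to 7.91 in the other mutants and 7.63 to 7.66 in Mut+/+ mice. Its mean over 12 macrophage and leukocyte markers was 8.13, against 7.16 to 7.58 in the other mutants and 7.004 to 7.19 in Mut+/+ mice. Over the 17 hypoxia response genes it was 10.04, against 9.70 to 9.77 in the other mutants and 9.68 to 9.74 in Mut+/+ mice. In the same array the mean of the 10 endothelial genes was 9.38, close to 9.38 and 9.39 in replicates 1 and 4.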
